A study of Saccharomyces cerevisiae with 6 samples.

Results

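Genes of the budding yeast response to phosphate starvation, 10 in number, were compared between Δset2 and WT cells, and 1 of them, GIT1, was higher in Δset2. GIT1, which imports glycerophosphoinositol and glycerophosphocholine as a source of phosphate, reached 2.73 times its WT level, in reads counted without regard to strand. The transporter PHO89, the phosphatases PHO11, PHO12 and PHO8, the polyphosphate gene VTC3, the regulator SPL2 and the transcription factor gene PHO4 did not pass the thresholds in either direction. PHO84 and PHO5 held no read in any sample, because no read could be counted for them. The 10 genes were chosen by name (PHO84, PHO89, GIT1, PHO5, PHO11, PHO12, PHO8, VTC3, SPL2 and PHO4) out of 18646 transcriptional units in the table, of which 6692 were protein coding.

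Total RNA was sequenced from 3 Δset2 and 3 WT cultures of the haploid strain background W303, each sample from its own colony. The Δset2 strain carries a deletion of SET2, made with a His3 marker according to the sample labels and with a KanMX cassette according to the study's methods. SET2 encodes the methyltransferase that places methyl groups on lysine 36 of histone H3. Both strains were grown in YPDA, a rich medium, so every value below describes cells that were not starved of phosphate by the design. The study gives no phosphate level for the medium. The comparison asks which transcripts change in amount when Set2 is lost.

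When phosphate is scarce, yeast cells make more of a set of transporters, secreted phosphatases and other phosphate-handling proteins, a response known as the PHO pathway. The transcription factor Pho4, acting with Pho2, binds the sequence CACGTG before these genes. In phosphate-replete cells the cyclin-dependent kinase complex Pho80-Pho85 phosphorylates Pho4 and keeps it out of the nucleus, and under starvation the inhibitor Pho81 blocks that kinase. PHO5 and PHO8 have long served as models of how nucleosomes over a promoter govern transcription.

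The Pho4 motif is shown here because most of the 10 genes share it. The list names genes of a response driven by Pho4, so the shares below describe the list and test nothing. The palindrome CACGTG lay within the 600 bases before the coding start of 9 of the 10 genes, PHO4 itself being the exception. It was found in the same window before 434 of 6002 protein-coding genes (7.23%) and before 16 of 35 other genes of the pathway (45.7%). The longer form CACGTGGG, searched on both strands, was present before 7 of the 10 genes, not before GIT1, PHO8 or PHO4, and before 33 of the 6002 genes (0.55%). The related CACGTT, searched on both strands, was present before 7 of the 10 genes, against 1127 of the 6002 genes (18.8%). CACGTGGG overlaps CACGTG by definition. A match is a string of letters and not a measured binding site. The sequences below are from RefSeq's R64 assembly, in sacCer3 coordinates, on the strand of the gene and 5′ to 3′, with the motif in capitals:

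GIT1, chrIII:299106-299135, minus strand, motif 518 bases before the coding start: cttttcgcggcgCACGTGcatgacggtaaa
PHO84, chrXIII:26197-26226, minus strand, 414 bases before: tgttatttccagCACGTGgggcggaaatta
PHO89, chrII:798828-798857, minus strand, 323 bases before: atgacaatgcagCACGTGggagacaaatag
PHO5, chrII:431187-431216, minus strand, 253 bases before: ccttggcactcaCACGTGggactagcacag
PHO5 with CACGTT, chrII:431296-431325, minus strand, 362 bases before: atattaaattagCACGTTttcgcatagaac
PHO11, chrI:225165-225194, plus strand, and PHO12, chrVIII:551804-551833, plus strand, 283 bases before each: tcttggcgttcaCACGTGggtttaaaaagg
PHO8, chrIV:1420767-1420796, minus strand, 534 bases before: tctacgtcgggcCACGTGcagcgatcactt
VTC3, chrXVI:517346-517375, minus strand, 345 bases before: tgtgcgagggccCACGTGgcttaatacaac
SPL2, chrVIII:375230-375259, minus strand, 147 bases before: aaatgatgtacgCACGTGggcgaaagttca

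SPL2 held 4 copies of CACGTG in this window, the most of the 10 genes. The copies before VTC3 lie inside the annotated unit of CTF19, which is read in the other direction and overlaps the VTC3 unit by 93 bases. CTF19 is among the 35 other genes, and its 2 copies of CACGTG are the same sites as those before VTC3. Among tested genes with CACGTG in the window, 7 were higher and 2 lower of 365 (2.47% called), with a median log2 fold change of -0.03. Among tested genes without it, 133 were higher and 37 lower of 4672 (3.64% called).

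Library totals ran from 5135226 to 22536840 counts in Δset2 and from 10568372 to 15015735 counts in WT. SET2 itself had 20, 9 and 32 reads in Δset2, against 435, 298 and 459 reads in WT, and so was low in all 3 knockout libraries. Levels are given in CPM, each count scaled to a normalized library of 1000000 counts. The test was the quasi-likelihood F test of edgeR, run on 5317 units with Benjamini-Hochberg adjustment over all of them, and a unit was called when its adjusted p was below 0.05 and its fold change above 1.5. By this rule 190 units were called (3.57%), of which 151 were higher in Δset2 (2.84% of those tested) and 39 were lower (0.733%).

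How far each gene could be measured depended on what else was annotated across it. A read that touched more than 1 unit was discarded whatever its strand, as was a read with more than 1 genomic position. PHO84, the main high-affinity phosphate transporter (YML123C, chrXIII:23940-25852, minus strand), had 1988 positions at which a 76-nt read could start to overlap it, and 0 of them were countable. The antisense unit CUT281 covers 1909 of its bases, and 4 bases are outside every other unit. PHO5, the main secreted acid phosphatase (YBR093C, chrII:429465-430993, minus strand), had 0 countable positions of 1604, since the antisense unit XUT_2F-177 covers all 1529 of its bases. Its count of 0 in all 6 samples, like that of PHO84, therefore gives no measure of expression, and neither gene was tested. XUT_2F-177 is longer than PHO5 and had 9, 13 and 27 reads in Δset2, against 10, 12 and 14 reads in WT, all from outside PHO5, with a log2 fold change of 0.47 (SE 0.40, edgeR adjusted p = 0.51).

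**Figure D1:**
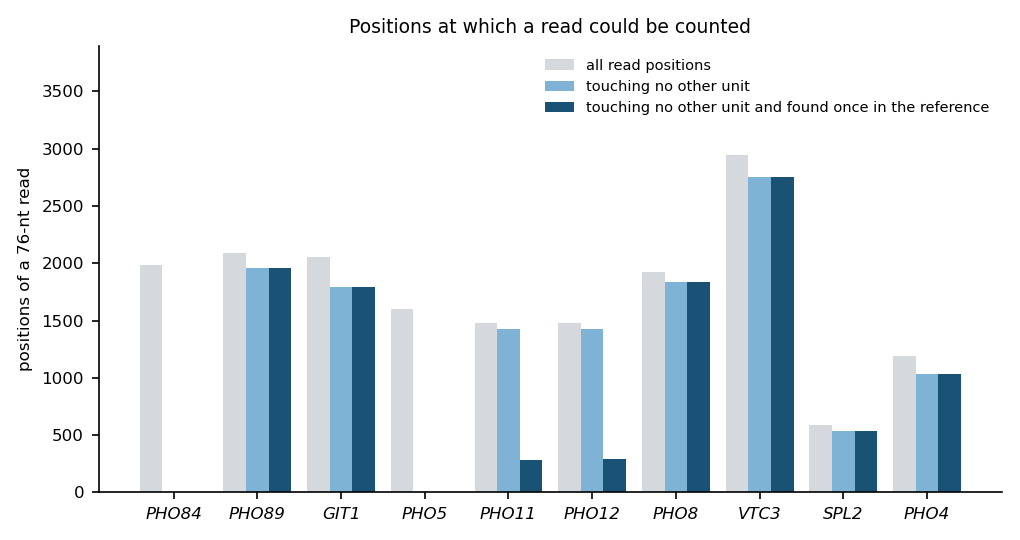
Number of positions of a 76-nt read (vertical axis) for each of the 10 genes: all positions that overlap the unit, those touching no other unit, and those that also occur once in the reference genome. PHO84 and PHO5 have 0 countable positions, and PHO11 and PHO12 keep 281 and 295 of 1479 when only exact matches are considered.

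GIT1 (YCR098C, chrIII:296825-298801, minus strand) kept 1794 of 2052 read positions (87.4%). The antisense unit SUT040 covers 157 of its bases, and reads touching them were discarded. Elsewhere reads of either strand were counted together, so the sense and antisense shares of the values below are not known. GIT1 had 661, 321 and 1770 reads in Δset2, and 308, 182 and 492 reads in WT. Scaled for depth, these were 68.2, 64.0 and 77.4 CPM in Δset2, against 26.3, 17.9 and 32.4 CPM in WT. The groups did not overlap, with every Δset2 sample above every WT sample. The means were 69.9 ± 6.89 CPM in Δset2 and 25.5 ± 7.27 CPM in WT (SD, n = 3 each). The log2 fold change was 1.45 (SE 0.18, 95% interval 1.04 to 1.86), a 2.73-fold difference with an interval of 2.06 to 3.62, and passed edgeR's test with an adjusted p of 0.0018. DESeq2 gave 1.44 with an adjusted p of 9.648e-12. By size of log2 fold change GIT1 stood at rank 18 of the 151 units called higher. WT 2 had the lowest GIT1 value, and without that library the log2 fold change was 1.255, with an edgeR adjusted p of 2.122e-04.

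PHO89 (YBR296C, chrII:796570-798586, minus strand), which encodes the sodium-coupled high-affinity phosphate transporter, had 96.0, 71.7 and 72.9 CPM in Δset2, against 55.2, 87.0 and 63.9 CPM in WT. The highest value was Δset2 1 and the lowest WT 1, but WT 2 lay above the other 2 Δset2 samples. The means were 80.2 ± 13.7 CPM in Δset2 and 68.7 ± 16.4 CPM in WT (SD, n = 3 each), and the log2 fold change of 0.23 (SE 0.17, 95% interval -0.16 to 0.61) did not pass (edgeR adjusted p = 0.46).

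**Figure D2:**
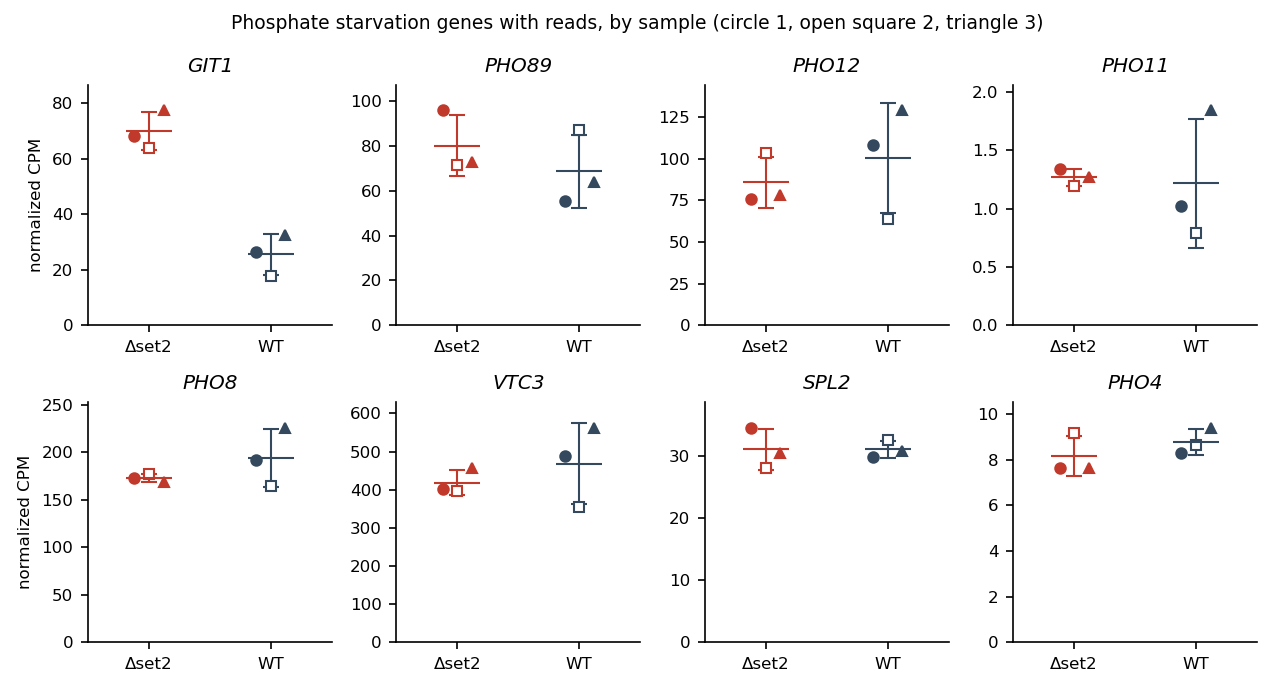
Normalized CPM (vertical axes, from 0, a scale of its own for each gene) in the 3 Δset2 samples (red) and 3 WT samples (blue) for the 8 genes with reads. Horizontal lines are means and bars are SD (n = 3). GIT1 is the gene whose groups are apart, at 64.0 to 77.4 CPM in Δset2 and 17.9 to 32.4 CPM in WT.

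PHO11 and PHO12 encode secreted acid phosphatases close to PHO5 and are near copies of each other at different chromosome ends (PHO11, YAR071W, chrI:225460-226863, plus strand, and PHO12, YHR215W, chrVIII:552099-553502, plus strand). Their coding sequences, 1404 bases each, were 99.72% identical and differed at 4 positions, which are A273G, A1060C, C1245T and A1268G, with the PHO11 base first, the PHO12 base last and the A of the start codon as position 1. The copies were also identical for 361 bases before the start codon. The stretches that hold these positions are shown because reads over them differ between the copies, as do reads that run past the 3′ end, where 5 bases after the stop codon are identical. They are given with the differing bases in capitals (R64, plus strand, 5′ to 3′):

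PHO11, coding 259 to 288, chrI:225718-225747: agtatcatgacaacAtggtacaaattgagt
PHO12, coding 259 to 288, chrVIII:552357-552386: agtatcatgacaacGtggtacaaattgagt
PHO11, coding 1046 to 1075, chrI:226505-226534: gcataatcgatgacAaaaataacttgaccg
PHO12, coding 1046 to 1075, chrVIII:553144-553173: gcataatcgatgacCaaaataacttgaccg
PHO11, coding 1242 to 1271, chrI:226701-226730: ctcCtgtgaaataaatgacttctacgActa
PHO12, coding 1242 to 1271, chrVIII:553340-553369: ctcTtgtgaaataaatgacttctacgGcta

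PHO12 had 75.7, 103 and 78.4 CPM in Δset2, against 108, 64.0 and 129 CPM in WT. WT held both the highest and the lowest value, and the log2 fold change was -0.24 (SE 0.22, 95% interval -0.73 to 0.26, edgeR adjusted p = 0.56). Without WT 2, its lowest sample, it was -0.48 with an edgeR adjusted p of 0.041, a fold under 1.5. PHO11 was near the limit of detection, with 13, 6 and 29 reads in Δset2 and 12, 8 and 28 reads in WT. Its log2 fold change was 0.00 (SE 0.37), and the 95% interval of -0.81 to 0.82 leaves room for a change of over 1.5-fold in either direction. The reads on PHO12 per read on PHO11 were 56.5, 86.3 and 61.8 in Δset2, against 105, 81.4 and 70.0 in WT. Both counts are uncertain. The 281 and 295 positions are those where an exact read is found once in the reference. The mapping allowed 2 mismatches, and 68 read positions had 3 or more differences from the other copy. Whether reads over fewer differences were kept was not tested, and the copies of W303 were not examined.

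PHO8 (YDR481C, chrIV:1418450-1420298, minus strand), the vacuolar alkaline phosphatase, had 173, 177 and 169 CPM in Δset2, against 192, 165 and 226 CPM in WT. The Δset2 samples lay within the range of WT. The means were 173 ± 4.17 CPM in Δset2 and 194 ± 30.6 CPM in WT (SD, n = 3 each), with a log2 fold change of -0.17 (SE 0.12, 95% interval -0.43 to 0.09, edgeR adjusted p = 0.43).

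VTC3 (YPL019C, chrXVI:514473-517345, minus strand), a subunit of the vacuolar complex that makes polyphosphate, had 402, 397 and 457 CPM in Δset2, against 488, 355 and 563 CPM in WT. Its CPM, not scaled for countable positions, was the highest of the 8 genes, and WT again spanned the Δset2 values. Its log2 fold change was -0.16 (SE 0.16, 95% interval -0.51 to 0.18, edgeR adjusted p = 0.57).

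SPL2 (YHR136C, chrVIII:374587-375100, minus strand) encodes a small protein that lowers the activity of the low-affinity transporters when phosphate is scarce. It had 34.6, 28.1 and 30.5 CPM in Δset2, against 29.8, 32.5 and 30.9 CPM in WT. The means were 31.1 ± 3.27 CPM in Δset2 and 31.1 ± 1.38 CPM in WT (SD, n = 3 each). The 95% interval of its log2 fold change, -0.23 to 0.25 around 0.01 (SE 0.11), was the narrowest of the 8 genes (edgeR adjusted p = 0.98).

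PHO4 (YFR034C, chrVI:224881-225993, minus strand), whose product activates genes of the pathway, had 7.64, 9.17 and 7.66 CPM in Δset2, against 8.28, 8.65 and 9.41 CPM in WT. One Δset2 sample fell among the WT values. Its log2 fold change was -0.14 (SE 0.14, 95% interval -0.46 to 0.18, edgeR adjusted p = 0.60).

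Of the 8 tested genes, 1 was thus called higher (GIT1) and 0 were called lower, beside 2.84% and 0.733% of all tested units. At an unadjusted p below 0.05 the counts were also 1 and 0, beside 12.8% higher and 10.7% lower among all tested units. DESeq2, which called 3.4% of its units, likewise called GIT1 and no other of the 8. The median log2 fold change of the 8 genes was -0.07, against -0.004 over all tested units, with 4 genes above 0 and 4 below. The Δset2 and WT values did not overlap for 1 of the 8 genes (12.5%), against 27.9% of all tested units, 13.8% being lower in Δset2. With 3 samples against 3 an exact permutation test of a single gene cannot give a p below 0.1, so calls rest on the fit across all units.

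Levels of different genes were compared as CPM per 1000 countable positions. In WT the order was VTC3 (170 ± 38.3), PHO8 (106 ± 16.6), SPL2 (57.9 ± 2.58), PHO89 (35.2 ± 8.40), GIT1 (14.2 ± 4.05) and PHO4 (8.48 ± 0.555), and the values of no neighbouring pair overlapped. In Δset2 it was VTC3 (152 ± 12.2), PHO8 (94.1 ± 2.27), SPL2 (57.9 ± 6.08), PHO89 (41.0 ± 7.00), GIT1 (39.0 ± 3.84) and PHO4 (7.87 ± 0.847). There GIT1 and PHO89 overlapped, so that the levels of these transporters could not be told apart in Δset2. The median over 5078 tested protein-coding units in WT was 23.95 CPM per 1000 positions. GIT1 was below this median in WT and above it in Δset2. VTC3, PHO8, SPL2 and PHO89 were above it in both groups, and PHO4 was below the lower quartile of 11.57 in both. PHO11 and PHO12 were left out of the order because of their shared sequence.

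WT 2 stood apart from the other samples for these genes. It was the lowest of the 6 samples for 5 of the 8 tested genes (GIT1, PHO11, PHO12, PHO8 and VTC3, 62.5%), against 18.5% of all tested units. Without WT 2 the groups did not overlap for 5 of the 8 genes, GIT1 and PHO89 being higher in Δset2 and PHO12, PHO8 and VTC3 lower, while 46.4% of all tested units did not overlap in that fit. GIT1 was still the 1 gene of the 8 called, where 6.94% of all units were. In that fit PHO89 had a log2 fold change of 0.43 (edgeR adjusted p = 0.065), VTC3 of -0.33 (edgeR adjusted p = 0.079) and PHO8 of -0.28 (edgeR adjusted p = 0.10). The 10 general stress genes listed as a sign of culture state also moved with the samples. Their summed level was 1983, 1174 and 1762 CPM in Δset2, against 766, 1239 and 894 CPM in WT, with WT 2 the highest of WT and Δset2 2 the lowest of Δset2. All 10 had a log2 fold change above 0 (median 0.76), 0 of the 10 were called and 9 had an unadjusted p below 0.05 (edgeR), 1 was called by DESeq2, 8 were called without WT 2 and 6 without Δset2 2, a fit that called 4.07% of all units. Whether culture state had a part in the values of the phosphate genes was not tested.

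**Figure D3:**
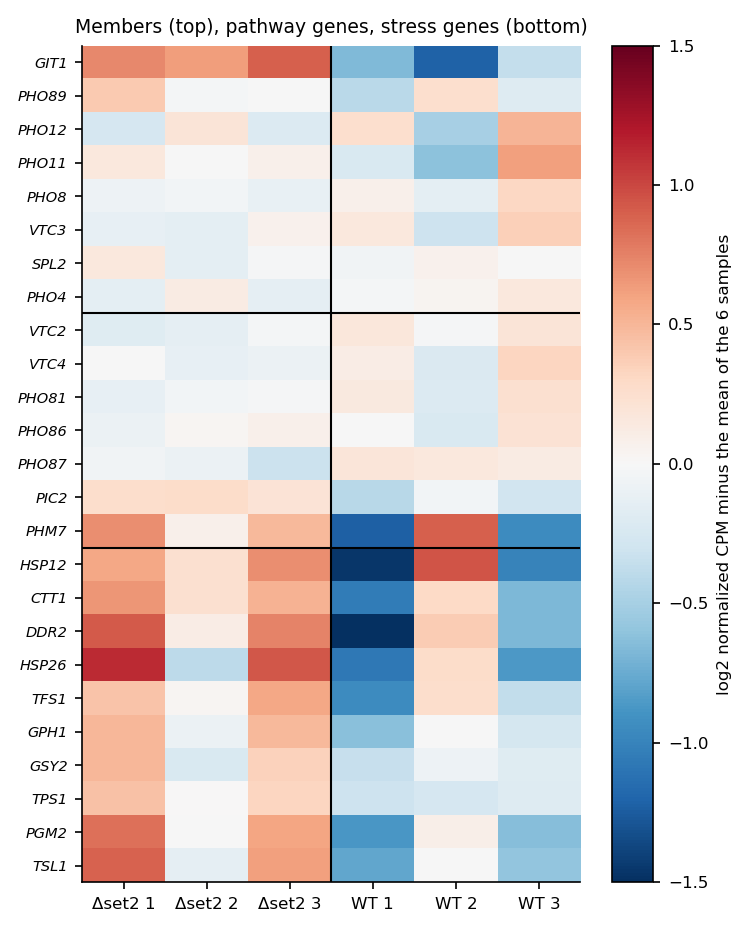
log2 normalized CPM minus the mean of the 6 samples (colour) for the 8 phosphate starvation genes with reads (top), 7 other phosphate pathway genes (middle) and 10 stress genes (bottom), in the 3 Δset2 and 3 WT samples. GIT1 is high in all 3 Δset2 samples, and the stress genes are higher in WT 2 than in WT 1 and, all but TPS1, than in WT 3.

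The other genes of the pathway, 35 in number and listed by role, gave 30 tested genes, of which 0 were called higher and 0 lower. At an unadjusted p below 0.05 there were 1 higher and 5 lower of the 30, where all tested units had 12.8% higher and 10.7% lower. DESeq2 also called 0, and the median log2 fold change was -0.06. PIC2, a mitochondrial phosphate and copper carrier, came nearest. It had 67.3, 68.0 and 64.5 CPM in Δset2, against 42.2, 54.3 and 45.9 CPM in WT, with no overlap and a log2 fold change of 0.49 (SE 0.11, edgeR adjusted p = 0.032), which is under the fold threshold. Among the 8 transport genes the lowest value was that of PHO87, a low-affinity plasma membrane transporter, at 76.8 ± 7.63 CPM in Δset2 and 95.2 ± 1.81 CPM in WT (log2 fold change -0.31, edgeR adjusted p = 0.094).

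Among the signalling genes, 9 of 10 were tested and the log2 fold changes ran from -0.32 for VIP1 (edgeR adjusted p = 0.13), an inositol pyrophosphate kinase, to 0.17 for PHO85, the kinase that phosphorylates Pho4. PHO85 kept 64 of 1220 read positions (5.25%), and its 95% interval was -0.31 to 0.65. PHO81, the kinase inhibitor, is itself a target of Pho4 and had 97.2 ± 3.46 CPM in Δset2 and 107 ± 16.5 CPM in WT (log2 fold change -0.13, edgeR adjusted p = 0.54). Of the 6 phosphatase genes 3 were tested, from DIA3, related to the acid phosphatases, at -0.90 (1.20 ± 0.182 CPM in Δset2 and 2.23 ± 0.763 CPM in WT, edgeR adjusted p = 0.12) to PHO13 at -0.05. PHO3, PHM8 and HOR2 had at most 2 countable positions and 0 reads.

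Of the 8 polyphosphate genes 7 were tested, from PPX1, an exopolyphosphatase, at -0.30 (edgeR adjusted p = 0.20) to PPN2, an endopolyphosphatase, at 0.16. VTC1 had 0 countable positions. The last small group held PHM6, PHM7 and CTF19. CTF19 is the gene whose unit overlaps that of VTC3, and a role of its own in the pathway was not examined. PHM6 had a log2 fold change of -0.06, while PHM7 had 54.3, 35.3 and 47.0 CPM in Δset2, against 14.3, 62.2 and 17.4 CPM in WT. WT 2 was the highest of all samples for PHM7, and its log2 fold change of 0.58 (SE 0.45, edgeR adjusted p = 0.48) became 1.53 without WT 2 (edgeR adjusted p = 2.914e-04). PIC2 was also called in that fit, at 0.59 (edgeR adjusted p = 0.0048).

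**Figure D4:**
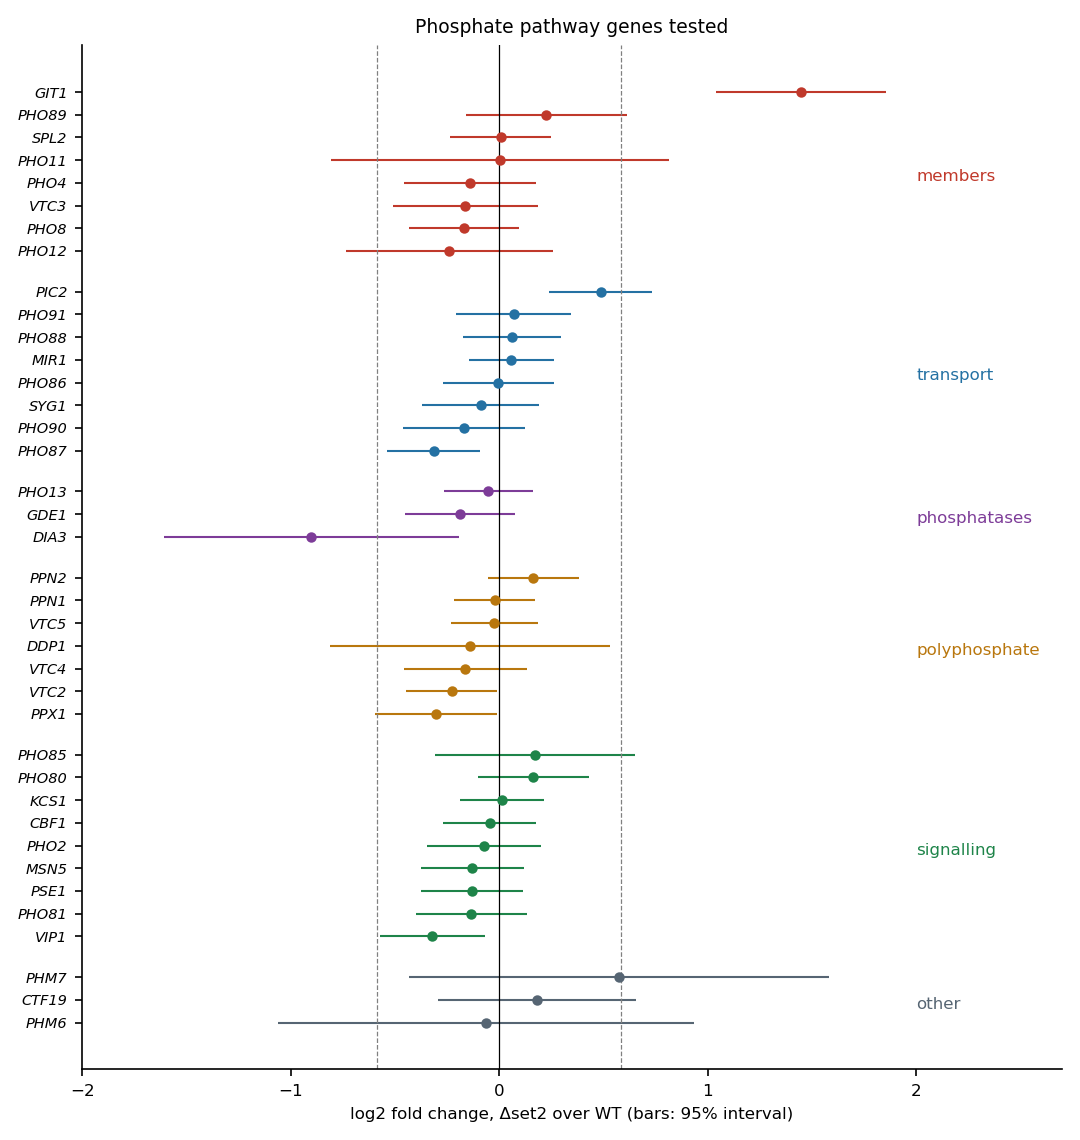
log2 fold change of Δset2 over WT (horizontal axis, bars are 95% intervals) for the 8 phosphate starvation genes tested (red) and the 30 other pathway genes tested, grouped by role. Dashed lines mark a 1.5-fold change, and GIT1 at 1.45 is the gene whose whole interval lies beyond it.

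Position set some of these genes apart. PHO84, PHO89, GIT1, PHO11 and PHO12, 5 of the 10, lay within 25 kb of a chromosome end, against 420 of 6692 protein-coding units (6.28%). PHO84, at 23939 bases, was just inside this distance, and PHO11 and PHO12 are near copies of each other. GIT1 was 17819 bases from the right end of chromosome III, with the threonine tRNA gene tT(AGU)C 1268 bases to its left and the silent mating-type gene HMRA1 2503 bases to its left. Its nearest tested neighbours were not called. YCR095W-A on the left, with a gap of 5619 bases, had a log2 fold change of -0.35 (SE 0.35, edgeR adjusted p = 0.58). YCR099C on the right, with a gap of 1815 bases, had -0.28 (SE 0.20, edgeR adjusted p = 0.44). Within 25 kb of GIT1 the 1 other unit called was KIN82, a protein kinase gene centred at -21.9 kb, on the left, with a log2 fold change of 0.95 (SE 0.16, edgeR adjusted p = 0.0077). Of the 18 distinct neighbours of the 10 genes 1 was called higher and 0 lower, and this was FLO1, a cell-surface flocculin gene 17443 bases from PHO11 (log2 fold change 1.70, edgeR adjusted p = 0.011).

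**Figure D5:**
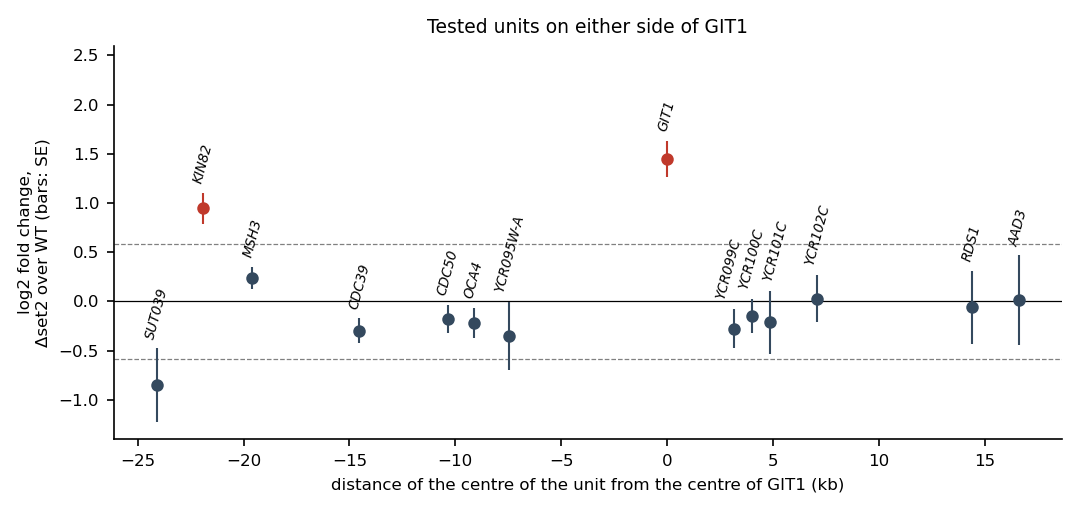
log2 fold change of Δset2 over WT (vertical axis, bars are SE) of tested units against the distance of their centre from the centre of GIT1 in kb. Called units are red. GIT1 at 1.45 stands between neighbours at -0.35 and -0.28.

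The tested units whose log2 CPM followed GIT1 most closely over the 6 samples were TUB4 (gamma-tubulin, Pearson r = 0.997), PRP16 (a splicing helicase, r = 0.991) and PEX6 (a peroxisome ATPase, r = 0.987). These are descriptions over 6 libraries that fall into the same 2 groups for every gene. None of these 3 genes was called, with log2 fold changes of 0.20 for TUB4, 0.45 for PRP16 and 0.46 for PEX6.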

How the data were processed

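The authors sequenced ribosomal RNA-depleted total RNA as 76-nt single-end reads in 1 pool, mapped them to sacCer3 with TopHat2 (version 2.1.0 in the submitters' processing notes) and kept reads with a single genomic position. They deposited counts per transcriptional unit, made without regard to strand and leaving out reads over more than 1 unit. They also deposited 6 FPKM columns and columns of their own fold changes and p-values, which were not used here. No column came from another series.

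Counts were normalized by TMM and filtered with filterByExpr, and tested in R 4.3.3 with edgeR 4.0.16 (quasi-likelihood test, no covariates, Benjamini-Hochberg adjustment over 5317 units). DESeq2 1.42.0 was an alternative, as were its size factors, upper quartile normalization, no filter, a replicate block and leaving out each library. The fit was tested on simulated data. Standard errors were derived from the F statistic, and intervals cover 95%. Library totals were 9811206, 5135226 and 22536840 counts in Δset2 and 11192254, 10568372 and 15015735 counts in WT. The samples came from separate colonies, and p-values measure the spread between these.

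Read positions were computed from the unit coordinates in the table and exact matches in the RefSeq R64 genome, into which all units fitted. The genes and lists were chosen with earlier results of these data known. Genes named were all 10 phosphate starvation genes, pathway genes past both thresholds, the lowest and highest of each list, the neighbours of a called gene and the 3 units most like it. Others (PHO81, KIN82, FLO1, SHM2, ADE4 and XUT_2F-177) were chosen after their values were seen.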

Additional observations from a re-analysis of the deposited data

How the results depend on the processing

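GIT1 was called under all 11 alternatives, with log2 fold changes from 1.255 to 1.66 and adjusted p (edgeR or DESeq2) up to 0.019, and no other of the 8 tested phosphate starvation genes was called under any of them. The median of the 8 genes stayed between -0.18 and -0.004. Over all units, 190 passed the thresholds, and the count ran from 80 (without Δset2 3) to 373 (without WT 2) when 1 library was left out. It was 190 with DESeq2, 189 with DESeq2's size factors, 181 with upper quartile normalization and 212 with no filter. Pathway genes past the thresholds numbered 0, including with DESeq2, and 0 to 2 when a library was left out, the 2 being PHM7 and PIC2 without WT 2. Phosphate starvation genes whose groups did not overlap numbered 1, and 1 to 5 when a library was left out, with 5 without WT 2 (46.4% of all tested units in that fit), 2 without Δset2 2 (41.4%) and 2 without WT 3 (34.8%). The log2 fold change of PHO11, 0.00 in the report, took the other sign with DESeq2's size factors (-0.0001567) and ran from -0.21 to 0.48 when a library was left out. That of SPL2 took the other sign with DESeq2 (-0.0005984) and ran from -0.074 to 0.061. The causes were not tested.

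Same-numbered samples had correlations of -0.32, -0.37 and -0.13 between their deviations from the group means. Other pairs ran from -0.11 (Δset2 3 with WT 1) to 0.33 (Δset2 2 with WT 1). With 3 samples a group such deviations are tied to each other, so these values cannot decide whether replicate numbers pair the samples. With the replicate number as a block 75 units were called, GIT1 had 1.48 (edgeR adjusted p = 0.0053) and PHO11 had -0.042. Low counts limited PHO11, with 6 to 29 reads a library. In the same libraries PHO12 had 518 to 1960 reads from a similar number of countable positions, and the cause of this difference was not tested. Annotation limited PHO84 and PHO5.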

Other observations

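Pho2, the partner of Pho4, also acts with Bas1 on genes of adenine synthesis. Of 11 such genes 1 was called lower in Δset2, beside 0.733% of all tested units. This was ADE17, which encodes an enzyme of the last steps of purine synthesis, at 2.72 ± 0.225 CPM in Δset2 and 4.62 ± 0.417 CPM in WT (SD, n = 3 each, log2 fold change -0.73, edgeR adjusted p = 0.049). ADE17 had 273 countable positions of 2068 (13.2%), with 25, 13 and 68 reads in Δset2 and 49, 51 and 71 reads in WT. That call was kept with DESeq2's size factors and lost under the other 10 alternatives. The list had 8 genes below 0 and a median of -0.27, and 5 of its genes had groups that did not overlap, all lower in Δset2, as did 736 of 5317 tested units (13.8%). SHM2 had 277 ± 38.5 CPM in Δset2 and 375 ± 33.9 CPM in WT (log2 fold change -0.43, edgeR adjusted p = 0.066), and ADE4 had 69.9 ± 8.65 CPM in Δset2 and 92.8 ± 7.50 CPM in WT (-0.41, edgeR adjusted p = 0.067).

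The mating-type markers with reads were those of a cells in both strains, apart from SAG1. The 6 a-specific genes summed to 838 to 944 CPM in Δset2 and 872 to 1083 CPM in WT, and the 4 α-specific genes to 41.9 to 46.2 CPM in Δset2 and 22.6 to 27.4 CPM in WT, almost all of it SAG1. SAG1, which encodes α-agglutinin, was higher in Δset2, at 44.3 CPM against 24.0 CPM in WT (log2 fold change 0.89, edgeR adjusted p = 0.0015). In both groups it lay above the a-specific MFA1 (16.6 CPM in Δset2, 13.7 CPM in WT) and AGA2 (14.8 CPM in Δset2, 13.4 CPM in WT). STE3, the receptor for a-factor, was lower, with 3, 1 and 5 reads in Δset2, against 14, 14 and 22 reads in WT (log2 fold change -2.44, edgeR adjusted p = 0.0069). MFALPHA1 had 0, 1 and 2 reads in Δset2 and 0, 0 and 1 reads in WT, and MFALPHA2 had 0 reads in all 6 samples and 0 countable positions.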
